A study of Mus musculus with 20 samples.

Results

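The 51 genes described here are the mouse genes of mitosis and the G2/M transition, chosen by symbol and looked up by Ensembl identifier among the 39017 genes of the expression table. All 51 were found, and all 51 passed the filter of a mean of at least 1 FPKM (the count of a gene scaled to its exon length in kilobases and to the total of its library) that left 11339 genes for testing. The symbols follow known roles in mitosis rather than a threshold on these values, but they were listed when results of these data were known. The genes were grouped by role as 7 genes of the cyclins, CDK1 and its regulators, 3 mitotic kinases, 5 genes of the spindle assembly checkpoint, 4 of mitotic proteolysis, 7 of the centromere and kinetochore, 4 of the chromosomal passenger complex, 9 kinesins, 6 of spindle assembly, 4 of cytokinesis and 2 of chromosome structure. Their summary in a library, called the mitosis score, was the average log2(FPKM + 1) of all 51.

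Poly(A) RNA was sequenced from bone marrow of mice that had been transplanted with T lineage acute leukemias (T-ALLs) initiated by insertional mutagenesis (IM), in which the retrovirus MOL4070LTR integrates near host genes. The primary leukemias arose in F1 mice (strain C57Bl/6 x 129Sv/Jae F1) and were passed to irradiated wild-type F1 recipients. Each leukemia is therefore a single primary tumor grown in different recipients, and residual host marrow can contribute RNA. The 9 leukemias compared were 20M, 2M, 5C, 73A, 73M, 78A, 8633, JW14 and JW81, with 2 libraries each. The labels put the libraries in no group other than the leukemia. Of the 2 libraries of a leukemia, 1 carries the letters VEH and the other DEX in its column name, and these letters are not explained in the labels, which give no treatment. Leukemia 4638 also had 2 libraries, and its values are given without entering the tests.

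Entry into mitosis is driven by CDK1 bound to cyclin B, which is switched on by CDC25 phosphatases and amplified by the Polo-like and Aurora kinases. The spindle assembly checkpoint keeps sister chromatids joined until every kinetochore is attached, after which the anaphase-promoting complex (APC) with CDC20 marks securin and cyclin B for destruction, and cytokinesis follows. Transcripts of these proteins accumulate together late in the cell cycle, through promoters with CCAAT boxes bound by NF-Y and cell cycle genes homology regions (CHR) bound by the DREAM and B-MYB-FOXM1 complexes, so their level in a proliferating tissue is widely read as a measure of dividing cells.

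The promoter letters shared by these genes are shown because the rule that chose the genes did not use them. A RefSeq promoter window of 300 bases, from 250 before to 50 after the transcription start (build GRCm38.p6), was available for 42 of the 51 genes. In each window both strands were searched for the CHR-type letters TTTGAA or TTCGAA and for the letters CCAAT, and adjacent matches of both kinds may share a base. CHR-type letters were present in 33 of the 42 windows (78.6%), against 21.7% of the 27025 genes with a window and 16.7% of the 8208 tested genes with a window. CCAAT was present in 32 windows (76.2%), against 41.1% and 43.7%. At least 2 copies of CCAAT were present in 23 windows (54.8%), against 13.3% and 17.5%, and both kinds of letters in 28 windows (66.7%), against 9.65% and 8.27%. Birc5, Mad2l1, Nuf2, Nusap1 and Pttg1 had neither in this window. These are descriptions of letters and no binding was measured. The 120 bases just before the RefSeq start are printed for Cdk1, Ccnb1 and Cdc20, 3 core regulators of mitotic entry and exit, for Ube2c, the gene with the lowest p in the DEX against VEH comparison, and for Kif11, among the least variable genes between leukemias. Capitals mark the CHR-type letters or CCAAT, on either strand, so that CCAAT on the opposite strand reads ATTGG and TTTGAA reads TTCAAA. The regions are chr10:69352913-69353032 on the minus strand for Cdk1, chr13:100786487-100786606 on the minus strand for Ccnb1, chr4:118437344-118437463 on the minus strand for Cdc20, chr2:164769809-164769928 on the plus strand for Ube2c and chr19:37376262-37376381 on the plus strand for Kif11.
Cdk1: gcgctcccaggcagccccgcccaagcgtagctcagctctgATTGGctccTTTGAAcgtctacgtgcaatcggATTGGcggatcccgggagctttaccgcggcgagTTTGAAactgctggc
Ccnb1: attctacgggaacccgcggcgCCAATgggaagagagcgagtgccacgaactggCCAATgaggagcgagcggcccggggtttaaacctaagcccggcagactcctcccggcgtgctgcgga
Cdc20: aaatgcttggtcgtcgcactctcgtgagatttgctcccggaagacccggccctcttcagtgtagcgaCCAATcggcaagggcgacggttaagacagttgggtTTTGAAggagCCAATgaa
Ube2c: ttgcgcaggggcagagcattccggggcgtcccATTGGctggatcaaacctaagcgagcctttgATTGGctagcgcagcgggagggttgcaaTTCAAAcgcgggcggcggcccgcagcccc
Kif11: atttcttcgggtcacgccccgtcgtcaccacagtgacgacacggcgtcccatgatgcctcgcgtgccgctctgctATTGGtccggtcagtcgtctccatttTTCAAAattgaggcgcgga

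Cdk1 had 2 CHR-type and 2 CCAAT matches in its stretch, Cdc20 and Ube2c each had 1 and 2, and Kif11 had 1 of each. Ccnb1 had 2 CCAAT matches and no CHR-type letters here.

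The 18 libraries held 8226528 to 201222288 expected counts with a median of 24451898, the deepest being the VEH library of 73M, and the lowest count of any of the 51 genes in any library was 85. T lineage markers were present throughout, with a summed level of 340.3 to 1044 FPKM over 8 genes. Host or non-T signal varied more. The summed erythroid markers ranged from 28.0 FPKM (DEX library of 20M) to 807 FPKM (VEH library of 73M), the summed neutrophil markers from 20.6 (DEX library of JW14) to 4614 FPKM (VEH library of 73A), the summed monocyte and macrophage markers from 13.2 to 431 FPKM, and the summed B lineage markers from 0.518 to 28.5 FPKM with Igll1, Pax5 and Vpreb1 under 1 FPKM in every library. Nuclear rRNA genes reached 21.6 to 64.0 cpm (counts scaled to the library total) in 5 libraries, namely 1 of each of 20M, 73M, JW14 and JW81 (their DEX library) and of 5C (its VEH library), and at most 0.00497 in the other 13. In these bulk samples fewer cells of a type and less RNA per cell cannot be told apart.

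All 51 genes were expressed in every leukemia, and their mean level over the leukemias ran from 3.99 FPKM for Cdc25c to 200.6 FPKM for Mki67, with a median of 19.8 FPKM. Only 2 genes exceeded 100 FPKM. Mki67, which coats mitotic chromosomes and is the usual proliferation marker, was at 200.6 ± 62.6 FPKM (SD, n = 9 leukemias), and Top2a, the topoisomerase that untangles sister chromatids, was at 136 ± 24.1 FPKM. Below them came the B-type and A-type cyclins Ccnb2 (57.4 ± 12.2 FPKM) and Ccna2 (49.8 ± 14.9 FPKM), the checkpoint kinase-like gene Bub1b (54.5 ± 13.3 FPKM), the bipolar-spindle motor Kif11 (46.8 ± 8.36 FPKM) and the APC activator Cdc20 (44.6 ± 10.003 FPKM). Cdk1 itself was at 22.4 ± 6.43 FPKM. By role, the median level was highest for chromosome structure (168 FPKM) and the cyclins with CDK1 (35.8 FPKM) and lowest for the centromere and kinetochore genes (13.6 FPKM).

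The leukemias differed in the mitosis score, a mean over genes for which no test was run. The mitosis score averaged 4.40 ± 0.31 on the log2(FPKM + 1) scale (SD, n = 9 leukemias) and ran from 3.91 in JW81 through 4.05 in JW14, 4.12 in 8633, 4.40 in 2M, 4.47 in 73M, 4.55 in 20M, 4.63 in 78A and 4.73 in 5C to 4.76 in 73A. Leukemia 4638 was at 4.26. The distance of 0.84 between the lowest and the highest compares with a pooled SD of 0.18 between the 2 libraries of a leukemia. JW81, JW14 and 8633 were the 3 lowest leukemias in the VEH libraries alone, in the DEX libraries alone and under every scaling tried. Between neighbours in this order, the step from 8633 to 2M was the only one wider than that pooled SD, and the order of the 6 leukemias from 2M upward changed between scalings.

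**Figure D1:**
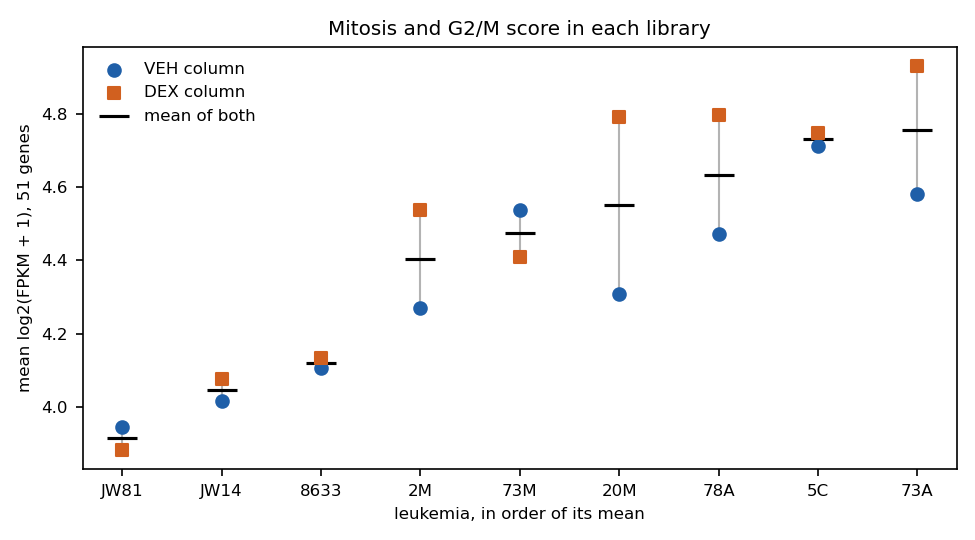
Mean log2(FPKM + 1) over the 51 mitosis and G2/M genes in each library, with the VEH library as a circle, the DEX library as a square and the mean of both as a bar, for 9 leukemias ordered by that mean. JW81, JW14 and 8633 lie between 3.91 and 4.12 on average and below every library of the other 6 leukemias, and the vertical gaps are widest in 20M (0.49) and 73A (0.35).

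Gene by gene, edgeR's quasi-likelihood test called 46 of the 51 genes different between leukemias at an adjusted p under 0.05, against 82.5% of all tested genes. The share is close to that background. The 5 genes not called were Top2a, Bub3, Kif20b, Kif2c and Spc24. The ratio of the highest to the lowest leukemia mean ran from 1.35 to 4.85 with a median of 2.18. For 50 of the 51 genes the lowest leukemia was JW81 (30 genes), JW14 (13) or 8633 (7), the exception being Bub3, which was lowest in 73M. The highest leukemia was 73A for 24 genes, 5C for 18, 78A for 7 and 20M for 2 (Spc25 and Nusap1). For 40 genes JW81, JW14 and 8633 were the 3 lowest leukemias in some order.

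Cdc25b, a phosphatase that starts the activation of CDK1 before mitosis, had the widest range. It was at 14.0 FPKM in JW81, 30.2 in 20M, 31.9 in 2M, 34.3 for 78A, 42.9 for 73M, 44.5 in JW14, 47.2 in 73A, 49.5 in 8633 and 68.1 in 5C. JW81 was thus separate at the bottom and 5C at the top, while JW14 and 8633, low for most of the programme, stood in the upper part (adjusted p between leukemias = 7.9e-06). Foxm1, the transcription factor that drives many of the other genes, came next, with 5.08 FPKM in JW14, 6.62 in 8633, 11.7 in JW81, 15.6 in 5C, 16.3 in 2M, 17.1 in 78A, 17.9 in 73M, 19.8 in 20M and 21.8 in 73A. JW14 and 8633 were below the other 7 leukemias in both libraries, and 4638 was at 13.9 (adjusted p = 5.6e-07). Pttg1, the securin that keeps separase inactive until anaphase, was at 3.86 FPKM in 8633, 4.41 in JW14, 5.92 in JW81, 7.45 in 2M, 7.60 in 20M, 8.55 in 73M, 9.71 in 78A, 10.7 in 73A and 14.7 in 5C (adjusted p = 2.9e-06).

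The narrowest range was that of Bub3, a checkpoint protein that also serves outside mitosis, which lay between 16.0 FPKM in 73M and 21.5 in 78A with a median of 18.0 and was not called (adjusted p = 0.0824). Spc24, an NDC80 complex subunit at the kinetochore, lay between 12.1 FPKM in 8633 and 16.7 in 73A with a median of 14.4 and was not called (adjusted p = 0.0662). Kif11 lay between 37.1 FPKM in JW14 and 58.8 in 5C with a median of 45.2 and was called (adjusted p = 0.0133). The best known members lay between these extremes. Mki67 ran from 110.1 FPKM in JW14 to 293 in 5C with a median of 203 (adjusted p = 2.2e-04), whereas Top2a, often used beside it, ran only from 105 in 8633 to 171 in 73A with a median of 136 (adjusted p = 0.0758). Cdk1 ran from 13.1 FPKM in JW81 to 37.1 in 5C with a median of 21.6, and 5C was above every other leukemia in both of its libraries (adjusted p = 1.2e-05).

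**Figure D2:**
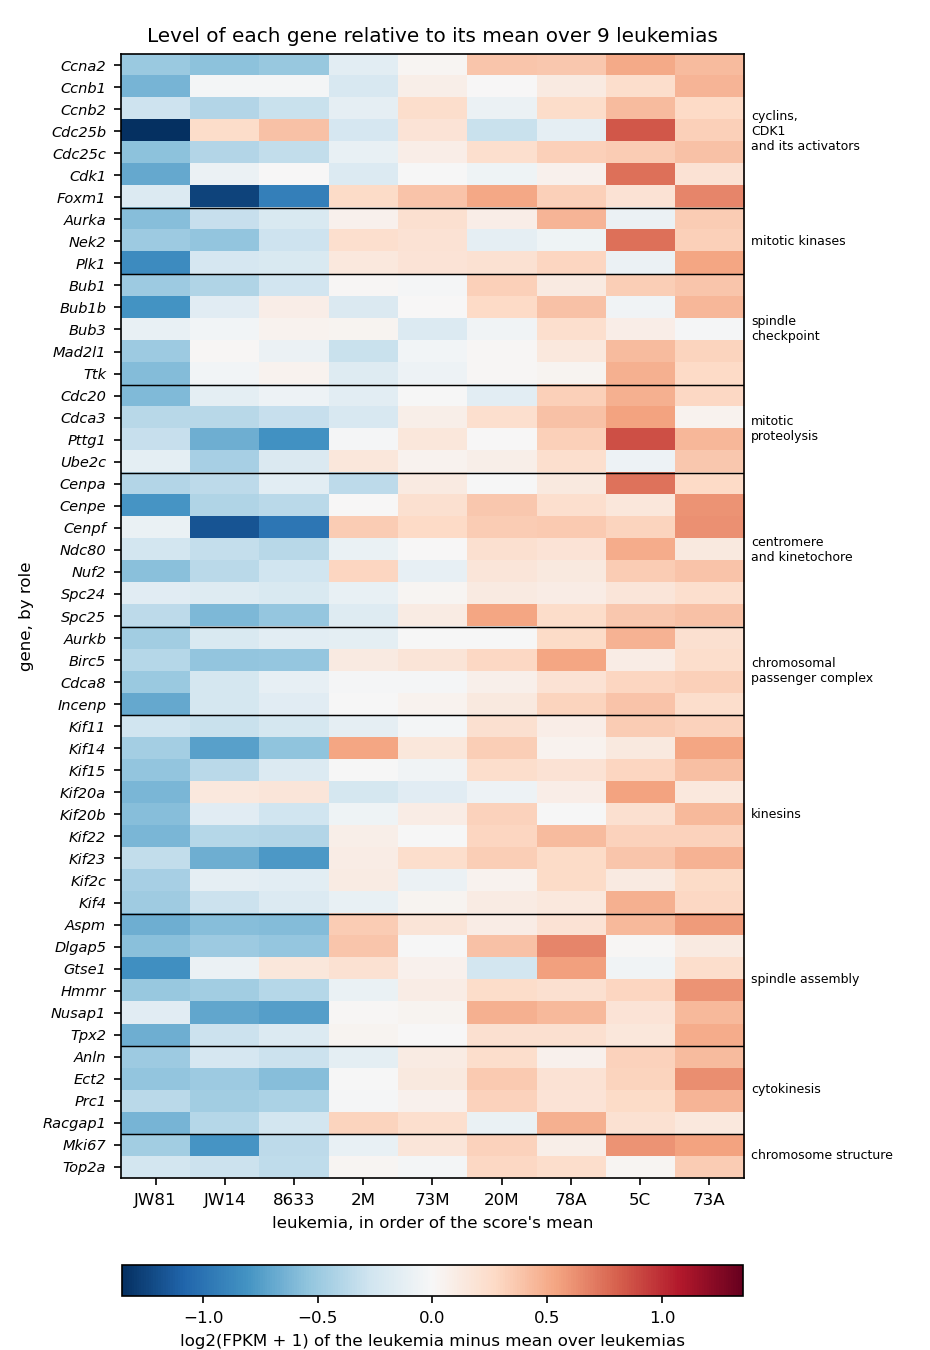
Mean log2(FPKM + 1) of each of the 51 genes (vertical, grouped by role) in each of 9 leukemias (horizontal, ordered by score), as the difference from that gene's mean over the leukemias, with red higher and blue lower. The 3 left columns, JW81, JW14 and 8633, are blue for most genes, with Cdc25b at 14.0 FPKM in JW81 but 44.5 and 49.5 in JW14 and 8633 as an exception, and Foxm1 and Cenpf darkest in JW14 and 8633.

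Each leukemia was then set against the mean of the other 8 with the same test. In JW81, 39 of the 51 genes were lower and 0 higher, against 18% and 19.9% of all genes. JW14 had 32 lower and 1 higher (background 26.9% and 29%), and 8633 had 18 lower and 1 higher (25% and 27.6%), the single higher gene being Cdc25b in both (log2 difference 0.34 in JW14 and 0.50 in 8633). In the other direction, 5C had 28 higher and 0 lower (24.3% and 24.1%), 73A had 22 higher and 0 lower (19.3% and 14.3%), and 78A had 16 higher and 0 lower (16.9% and 9.72%). The remaining leukemias had fewer calls. In 20M, 8 genes were higher and 2 lower (25.3% and 22%), in 2M 4 higher and 2 lower (21.2% and 14.2%), and in 73M 2 higher and 0 lower (21.6% and 15.9%), which were Foxm1 and the centralspindlin subunit Racgap1.

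The genes called lower in all 3 low leukemias were Aspm, Birc5, Ccna2, Cdca3, Dlgap5, Ect2, Kif14, Kif22, Kif23, Mki67, Pttg1 and Racgap1, which were 12 of the 39 in JW81 (30.8%), of the 32 in JW14 (37.5%) and of the 18 in 8633 (66.7%). The share of all tested genes called lower in all 3 was not computed, so the overlap cannot be called particular to these genes. In JW81 the lowest genes were Cdc25b (log2 difference from the others -1.53), Plk1 (-0.95), the kinase that matures centrosomes, Gtse1 (-0.95), which regulates microtubules, and Cenpe (-0.88), the kinetochore motor, with Cdk1 at -0.76. In JW14 they were Foxm1 (-1.50), Cenpf (-1.33), a large kinetochore protein, Kif14 (-0.96) and Mki67 (-0.84), and in 8633 Cenpf (-1.12), Foxm1 (-1.08), Pttg1 (-1.01) and Kif23 (-0.94), the motor partner of Racgap1. Foxm1 was not called in JW81, and Plk1 was called in neither JW14 nor 8633. Whether these differences between the low leukemias exceed their error was not tested directly. Among the high leukemias, 5C was highest relative to the others for Pttg1 (1.09), Cdc25b (0.96), the centromeric histone Cenpa (0.90), Nek2 (0.89) and Cdk1 (0.87), and 73A for Foxm1 (0.71), Ect2 (0.66), Cenpf (0.63) and Hmmr (0.62). In 78A the spindle gene Dlgap5 (0.76), Gtse1 (0.65) and survivin, Birc5 (0.60), led.

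Genes of DNA replication did not follow the same order. The mean log2(FPKM + 1) of 32 replication genes, among them the origin and helicase genes, was 4.35 in JW81 and 5.09 in 5C, again low and high. It was 4.89 in JW14 and 4.81 in 8633, higher than in every leukemia but 5C, whereas both were near the bottom for the mitosis score. Markers of other cells also differed in these leukemias. The neutrophil marker mean was lowest in JW14 (1.22) and 8633 (3.61), was 4.48 in JW81, and was highest in 73A (6.57), with 4638 at 7.99, and the erythroid mean ran from 0.89 in 8633 to 3.75 in 73M. Their part in the differences between leukemias was not tested.

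Within leukemias, the DEX library was compared with the VEH library of the same leukemia. A part of the programme was modestly higher in the DEX libraries. With leukemia as a block, edgeR called 19 of the 51 genes higher and 0 lower, against 6.2% of all genes higher and 6.84% lower. The rise of the called genes was 1.15-fold to 1.39-fold. The median log2 fold change of the 51 genes was 0.22, against 0.0039 over all tested genes, and 3 of the 51 had a negative value against 49.1% of all genes. Of the 19, 7 were higher in 9 of 9 leukemias, 11 in 8 and 1 in 7, but the VEH and DEX ranges of every gene overlapped. The p-values measure the spread between these libraries only, since each leukemia has 1 library of each kind.

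**Figure D3:**
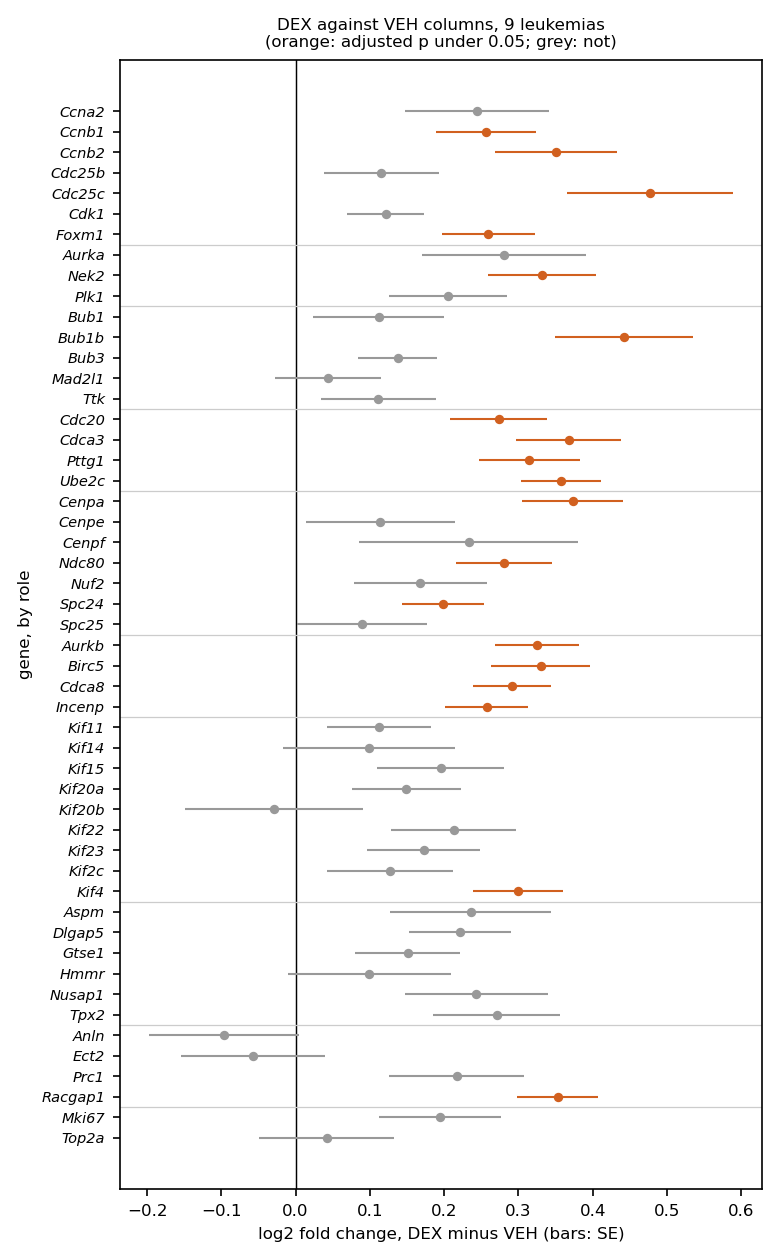
Log2 fold change of the DEX against the VEH libraries (horizontal, edgeR with leukemia as a block, bars are the standard error) for each of the 51 genes (vertical, grouped by role), with orange for an adjusted p under 0.05. The 19 orange points lie between 0.20 and 0.48, and Anln, Ect2 and Kif20b are the only 3 genes left of 0.

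Calls are given by role below, but differences between roles were not tested. Fold changes of called and uncalled genes overlapped, as with Spc24 (0.20, called) and Aurka (0.28, not called). All 4 genes of the chromosomal passenger complex, which corrects faulty attachments and then positions the cleavage furrow, rose. Aurkb, its kinase, ranged from 16.8 to 38.2 FPKM in the VEH libraries (median 22.5) and from 21.7 to 37.7 in the DEX libraries (median 28.3), and was higher in DEX in 8 of 9 leukemias, 5C being the exception. Its log2 fold change was 0.32 ± 0.06 (SE, adjusted p = 0.00588). Cdca8, which encodes borealin, ranged from 8.54 to 15.5 FPKM (median 11.9) in VEH and from 9.55 to 18.96 (median 14.8) in DEX, higher in 9 of 9 (0.29 ± 0.05, adjusted p = 0.00665). Birc5, which docks the complex on centromeric chromatin, ranged from 15.1 to 31.3 FPKM (median 24.1) in VEH and from 16.8 to 40.5 (median 28.1) in DEX, higher in 9 of 9 (0.33 ± 0.07, adjusted p = 0.0104). Incenp, the scaffold, ranged from 19.8 to 43.2 FPKM (median 31.0) in VEH and from 20.4 to 44.5 (median 36.7) in DEX, higher in 9 of 9 (0.26 ± 0.06, adjusted p = 0.0139). The median log2 fold change of the 4 genes was 0.31. Incenp did not pass with a term for nuclear rRNA in the fit, and neither Incenp nor Birc5 passed without 73A and 73M.

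The 4 genes of mitotic proteolysis rose as well, with a median log2 fold change of 0.34. Pttg1 and Cdc20 did not pass with a term for nuclear rRNA in the fit, and without 73A and 73M only Ube2c passed. Ube2c (chr2:164769898-164778822, GENCODE M21), the ubiquitin-conjugating enzyme of the APC, had the lowest p of the 51 genes. Its level in VEH and DEX was 18.2 and 24.6 FPKM in 20M, 20.9 and 24.4 in 2M, 16.8 and 21.9 in 5C, 23.0 and 29.6 in 73A, 20.2 and 21.7 in 73M, 20.8 and 26.9 in 78A, 15.5 and 19.6 in 8633, 13.7 and 15.3 in JW14, and 16.0 and 20.8 in JW81. DEX was thus the higher library in 9 of 9, and also in 4638 (22.3 and 29.2), giving a log2 fold change of 0.36 ± 0.05 (adjusted p = 0.00300). Cdca3, an adaptor of a ubiquitin ligase that promotes mitotic entry, ranged from 17.6 to 40.7 FPKM (median 23.6) in VEH and from 22.1 to 39.3 (median 31.7) in DEX, higher in 8 of 9 with 5C the exception (0.37 ± 0.07, adjusted p = 0.00865). Pttg1 ranged from 3.65 to 14.3 FPKM (median 6.67) in VEH and from 3.86 to 15.1 (median 9.001) in DEX, higher in 8 of 9 (0.31 ± 0.07, adjusted p = 0.0138). Cdc20 was higher in 8 of 9 (0.27 ± 0.07, adjusted p = 0.0209).

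Of the cyclins, CDK1 and its regulators, 4 of 7 rose. None of the 4 passed with a term for nuclear rRNA in the fit or without 73A and 73M. Ccnb1, cyclin B1, ranged from 23.6 to 42.5 FPKM (median 33.0) in VEH and from 21.0 to 54.7 (median 38.6) in DEX (0.26 ± 0.07, adjusted p = 0.0292), with JW81 alone lower in DEX, and Ccnb2 changed by 0.35 ± 0.08 (adjusted p = 0.0192). Cdc25c, the least abundant of the 51 genes, had the highest fold change, 0.48 ± 0.11 (adjusted p = 0.0190). Foxm1 ranged from 4.83 to 18.6 FPKM (median 15.1) in VEH and from 5.32 to 24.9 (median 17.5) in DEX, with 73M alone lower in DEX (0.26 ± 0.06, adjusted p = 0.0212). Cdk1 did not pass, with 13.2 to 39.4 FPKM (median 20.1) in VEH and 12.96 to 34.9 (median 22.0) in DEX and a value of 0.12 ± 0.05 (adjusted p = 0.134). Ccna2 (0.24 ± 0.10) and Cdc25b (0.12 ± 0.08) did not pass either.

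At the centromere and kinetochore 3 of 7 genes rose. None of the 3 passed without 73A and 73M, and Spc24 did not pass with a term for nuclear rRNA in the fit. Cenpa ranged from 6.72 to 18.4 FPKM (median 8.91) in VEH and from 8.66 to 18.5 (median 12.8) in DEX, higher in 9 of 9 (0.37 ± 0.07, adjusted p = 0.00677), while Ndc80 changed by 0.28 (adjusted p = 0.0174) and Spc24 by 0.20 (adjusted p = 0.0357). Their partners in the NDC80 complex, Nuf2 (0.17) and Spc25 (0.09), did not pass, nor did Cenpe (0.11) or Cenpf (0.23). In the checkpoint 1 of 5 rose, and its call was lost without 73A and 73M. Bub1b, which encodes the APC inhibitor BUBR1, ranged from 28.6 to 55.9 FPKM (median 46.8) in VEH and from 30.8 to 90.9 (median 56.6) in DEX, higher in 9 of 9 (0.44 ± 0.09, adjusted p = 0.0126). Bub1, its kinase relative, ranged from 15.2 to 25.4 FPKM (median 19.6) in VEH and from 13.3 to 29.1 (median 23.5) in DEX and did not pass (0.11 ± 0.09, adjusted p = 0.402), like Bub3 (0.14), Ttk (0.11) and Mad2l1 (0.04).

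Of the mitotic kinases only Nek2, which separates centrosomes, passed, and its call was lost with a nuclear rRNA term and without 73A and 73M. It ranged from 8.87 to 28.0 FPKM (median 13.7) in VEH and from 11.1 to 24.8 (median 17.3) in DEX, with 5C alone lower in DEX (0.33 ± 0.07, adjusted p = 0.0145). Plk1 ranged from 11.7 to 28.1 FPKM (median 19.2) in VEH and from 10.8 to 34.0 (median 22.4) in DEX (0.21 ± 0.08, adjusted p = 0.102). Aurka, the kinase of spindle poles, ranged from 12.7 to 21.1 FPKM (median 16.3) in VEH and from 10.7 to 29.2 (median 22.3) in DEX (0.28 ± 0.11, adjusted p = 0.109). Both were lower in DEX in JW81 and 8633, with 73M also lower for Plk1 and 5C for Aurka.

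Among the motors and the cytokinesis genes, 1 of 9 kinesins and 1 of 4 cytokinesis genes passed. Without 73A and 73M only the cytokinesis gene did. Kif4, a chromosome motor that shortens the central spindle, ranged from 13.6 to 29.3 FPKM (median 18.9) in VEH and from 15.1 to 29.7 (median 21.7) in DEX, with 5C alone lower in DEX (0.30 ± 0.06, adjusted p = 0.0107). Racgap1 (chr15:99620496-99651656), the GTPase-activating subunit of centralspindlin, was at 19.3 and 28.3 FPKM in VEH and DEX in 20M, 28.2 and 35.1 in 2M, 28.7 and 30.1 in 5C, 23.9 and 32.4 in 73A, 26.9 and 33.1 in 73M, 31.7 and 40.2 in 78A, 19.7 and 22.6 in 8633, 17.4 and 21.1 in JW14, and 14.7 and 17.3 in JW81. It was higher in DEX in 9 of 9 (0.35 ± 0.05, adjusted p = 0.00357) but not in 4638 (26.5 and 26.4). Kif11, Kif14, Kif15, Kif20a, Kif22, Kif23 and Kif2c had positive values of 0.10 to 0.21 and did not pass, and Kif20b was at -0.03. Its fellow cytokinesis genes were at 0.22 for Prc1, -0.06 for the exchange factor Ect2 and -0.10 for Anln, which encodes anillin.

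The spindle assembly genes Aspm, Dlgap5, Gtse1, Hmmr, Nusap1 and Tpx2 had values of 0.10 to 0.27, and 0 of 6 passed, with Dlgap5 nearest to the threshold (adjusted p = 0.0513). Neither chromosome structure gene passed. Mki67 ranged from 112 to 269.2 FPKM (median 173) in VEH and from 108 to 324 (median 197) in DEX, higher in 5 of 9 (0.19 ± 0.08, adjusted p = 0.127). Top2a ranged from 105 to 162 FPKM (median 130.0) in VEH and from 100.4 to 179 (median 143.2) in DEX, higher in 6 of 9 (0.04 ± 0.09, adjusted p = 0.782). Of the 32 genes not called, 29 had a positive fold change and 14 an unadjusted p under 0.05.

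The change was unequal between leukemias. The mitosis score was higher in DEX by 0.49 (20M), 0.35 (73A), 0.32 (78A) and 0.27 (2M), by 0.06 in JW14, 0.04 in 5C and 0.03 in 8633, and its difference was -0.06 in JW81 and -0.13 in 73M (mean 0.15 ± 0.21, SD, n = 9 leukemias). In 4638 it was -0.04, and 9 of the 19 called genes were higher there in DEX. The number of the 51 genes higher in DEX was 51 in 20M and 78A, 50 in 73A and 49 in 2M, then 34 in 5C, 30 in JW14, 29 in 8633 and 21 in both 73M and JW81. Over all tested genes the share higher in DEX was 39.8% to 53.0%, against 41.2% of the 51 genes in 73M and JW81, and the median difference over all genes lay between -0.09 and 0.02. With TMM-scaled FPKM the JW81 difference turned positive (0.05, with 31 of the 51 genes higher), that of 73M was -0.03 (25 higher) and the other 7 stayed positive (0.02 to 0.53). With 1 library of each kind, the difference between leukemias could not be tested.

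**Figure D4:**
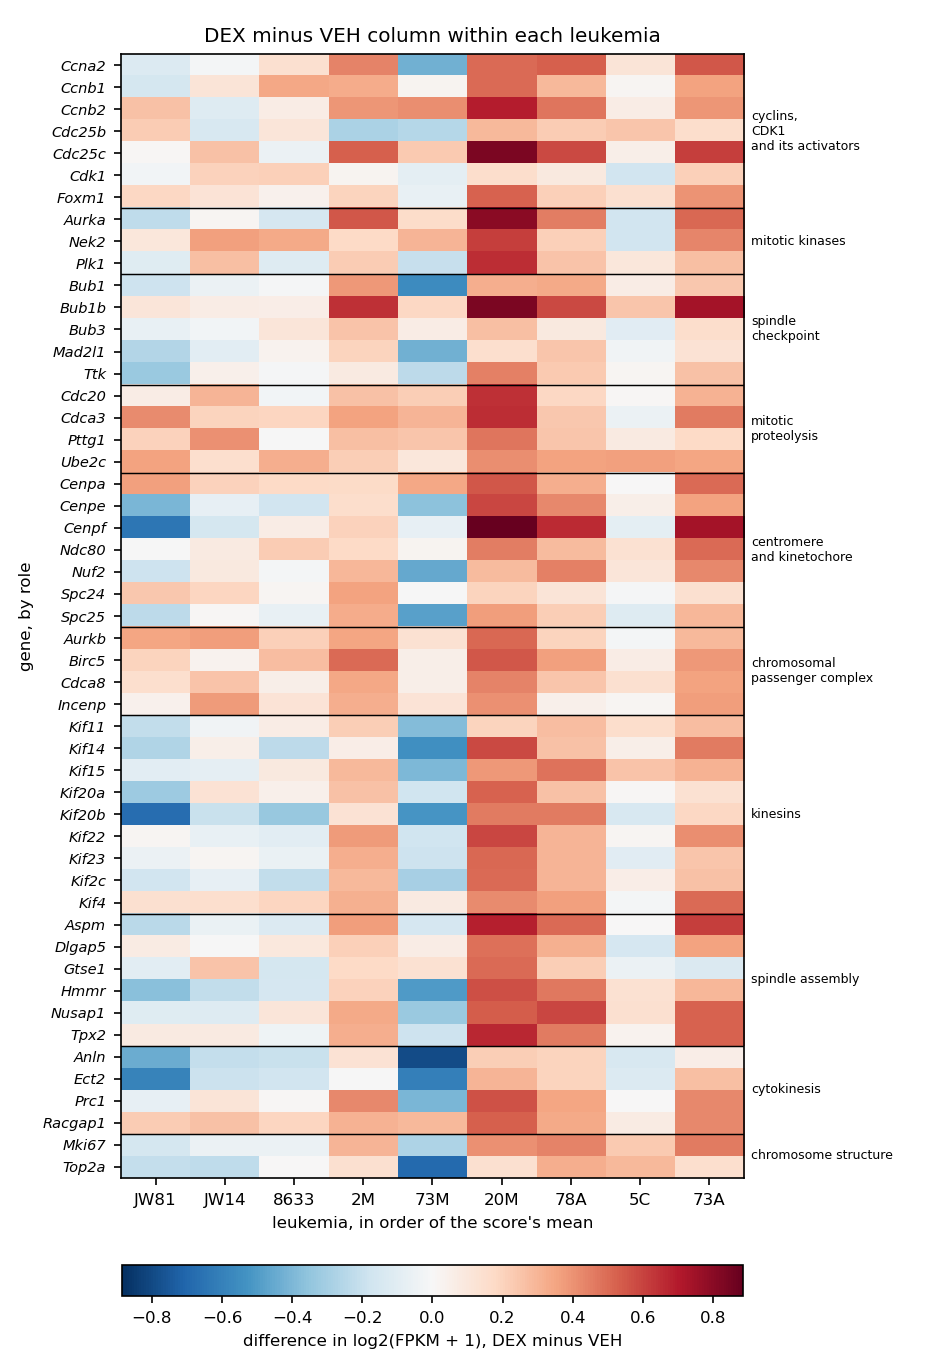
DEX minus VEH difference in log2(FPKM + 1) for each of the 51 genes (vertical, grouped by role) in each of 9 leukemias (horizontal, ordered by score), with red higher in DEX and blue lower. The columns of 20M and 78A are red for all 51 genes, and those of 73M and JW81 hold 30 blue genes each (26 and 20 with TMM-scaled FPKM), among them Anln (-0.79 in 73M) and Kif20b (-0.68 in JW81).

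In 73M and JW81 the share of the 51 genes higher in DEX (41.2%) was near that of all genes (40.2% and 39.8%), and single genes lay on both sides. Anln (-0.79), Top2a, Ect2 and Bub1 were among the genes lower in DEX in 73M, while Ccnb2 (0.41), Cenpa and Racgap1 were higher. In JW81 Kif20b (-0.68), Cenpf and Ect2 were lower in DEX and Cdca3 (0.42), Cenpa and Ube2c were higher. In 20M the differences ran from 0.14 for Top2a to 0.89 for Cenpf. Markers of other cells moved in some of these pairs. The DEX minus VEH difference of the erythroid marker mean was -2.31 in 73M and -1.09 in 73A, and between -0.13 and 0.37 in the other 7 leukemias. The neutrophil marker mean differed by -1.18 in JW81, -1.17 in 73M, -0.56 in 73A, -0.43 in JW14, -0.30 in 5C, -0.26 in 20M, 0.17 in 2M, 0.48 in 8633 and 0.68 in 78A. The B lineage mean differed by -1.02 in 73M and -0.30 in 73A and by -0.08 to 0.04 elsewhere. The monocyte and macrophage mean differed by -0.39 to 0.24. None of the tested genes of these 4 lists passed the DEX against VEH test. Tested were 8 of 10 erythroid, 10 of 11 neutrophil, 6 of 9 monocyte and macrophage and 1 of 8 B lineage genes. That test asks for a change shared by the 9 leukemias, so it cannot show that these markers were stable within each pair. Apart from the comparison without 73A and 73M the part of these markers in the result was not tested. The T lineage mean was lower in DEX in 8 of 9 leukemias, with a mean difference of -0.15 ± 0.10 (SD, n = 9 leukemias) and 1 of 8 genes past the test, Cd5.

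Related lists were read from the same fit. Beside 6.2% of all genes higher and 6.84% lower, 11 of 50 other mitotic genes rose (22%) and 0 fell (median log2 fold change 0.15), led by the centromere protein gene Cenpn (0.59, adjusted p = 0.00520), the cohesion gene Cdca5 (0.29, adjusted p = 0.00603) and the condensin gene Ncapd2 (0.27, adjusted p = 0.00953). Of 16 APC genes 3 rose (18.8%) and 0 fell (median 0.07), which were Anapc16 (0.41), the late-mitotic activator Fzr1 (0.28) and Ube2s (0.32), the enzyme that extends the chains begun by UBE2C. Of 32 DNA replication genes 0 rose and 3 fell (9.38%, near the share of all genes, median -0.08), namely the licensing factors Cdc6 (-0.45, adjusted p = 0.0205) and Orc1 (-0.44, adjusted p = 0.0243) and the helicase subunit Mcm4 (-0.33, adjusted p = 0.0300). Of 21 tested genes that control G2/M transcription 1 rose (4.76%) and 3 fell (14.3%, median -0.08). The rise was Tfdp2 (0.32, adjusted p = 0.0442), a dimerization partner of the E2F factors, named after its value was seen. The falls were E2f3 (-0.40), the repressor E2f6 (-0.28) and the MuvB subunit Lin9 (-0.19). Of 11 tested genes of cell cycle exit, 1 rose (9.09%), the CDK4/6 inhibitor gene Cdkn2c (0.30, adjusted p = 0.0257).

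**Figure D5:**
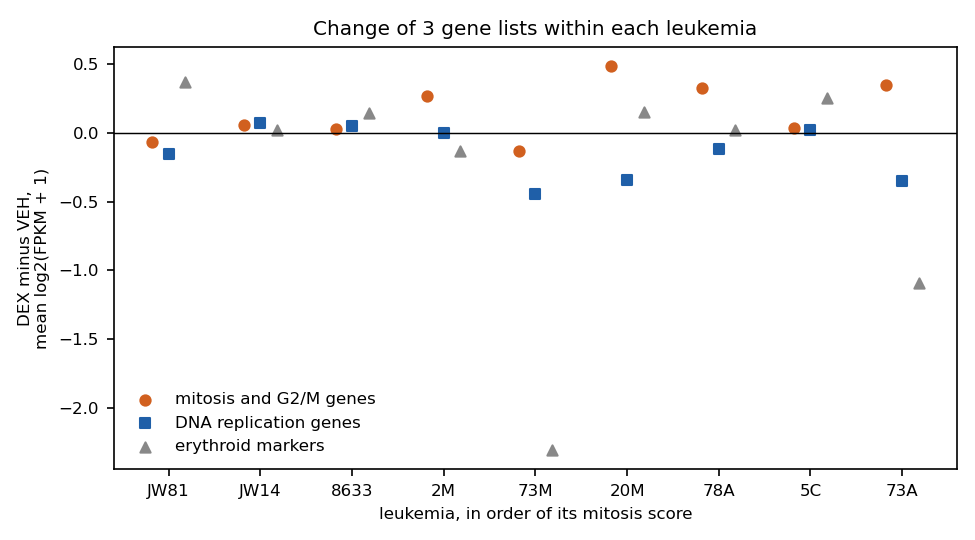
DEX minus VEH difference of the mean log2(FPKM + 1) of 3 gene lists (51 mitosis and G2/M genes, 32 DNA replication genes, 10 erythroid markers) in each of 9 leukemias ordered by mitosis score. In 20M and 73A the mitosis genes are at 0.49 and 0.35 and the replication genes at -0.34 and -0.35, and the erythroid markers are far below 0 in 73M (-2.31) and 73A (-1.09).

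The DEX minus VEH differences of the mitosis and replication scores stand side by side here. In 20M they were 0.49 and -0.34, in 73A 0.35 and -0.35, in 78A 0.32 and -0.12, and in 2M 0.27 and -0.0036. In 73M they were -0.13 and -0.44, and in JW81 -0.06 and -0.15, where the median over all genes was -0.08 and TMM scaling gave 0.05 and -0.03. In 5C, 8633 and JW14 both lay between 0.02 and 0.07.

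Library features also moved with the letters, since 4 of the 5 libraries with nuclear rRNA were DEX libraries. In 8633, 78A, 73A and 2M, where both libraries lacked it, 11 of the 51 genes rose (background 1.61%), with a median log2 fold change of 0.30. These 11 included Ccna2 and Nusap1 (edgeR adjusted p = 0.0314 and 0.0420), which the fit over all 9 leukemias did not call. Of the 19 calls of that fit, 10 were lost here. In the 5 leukemias with a nuclear rRNA library 0 passed (background 0.0794%), with 17 genes at an unadjusted p under 0.05 and a median of 0.13. With an rRNA term in the fit for all 9 leukemias 10 of the 51 passed (background 1.85%), with a median of 0.23, against 0.22 without the term. These were Ube2c, Racgap1, Aurkb, Cdca8, Cenpa, Cdca3, Birc5, Bub1b, Kif4 and Ndc80. When 73A and 73M, the leukemias whose erythroid markers moved, were left out, 4 passed (background 1.11%), which were Ube2c, Racgap1, Aurkb and Cdca8, and the median of the 51 genes was 0.21. Leaving out any single leukemia kept 12 of the 19 calls, and of the other 7 (Ndc80, Cdc25c, Ccnb2, Cdc20, Foxm1, Ccnb1 and Spc24) 5 were lost without 20M and 5 without 73A.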

How the data were processed

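Poly(A) RNA of 20 bone marrow libraries from 10 leukemias had been sequenced, and 18 libraries of 9 leukemias were compared. The authors aligned reads to mm10 with Bowtie 2 and quantified genes with RSEM, and deposited 1 table, whose name says FPKM. The deposited values were taken to be the expected counts per gene that RSEM gives, not normalized, because the columns sum to 8226528 to 201222288 and 68.3% to 74.5% of the values above 0 are whole numbers, and the FPKM values and tests given here depend on that reading. The counts were rounded to whole numbers and joined to GENCODE M21 for gene names, positions and merged exon lengths (37693 of 39017 genes), and FPKM was computed here from the count, that length and the library total. At 1 kb of exon a count of 3 corresponds to 0.0149 to 0.365 FPKM, and with RSEM reads shared by similar genes are estimated. Leukemias were taken from the sample titles. The DEX columns of 3 leukemias (2M, 73A and 4638) matched a title by leukemia name alone, and VEH and DEX were read from the column names.

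Tests used edgeR 4.0.16 in R 4.3.3 (TMM normalization, quasi-likelihood fit with leukemia and the letters as terms, Benjamini-Hochberg adjustment over the 11339 genes that averaged 1 FPKM or more, threshold 0.05). The pairing of VEH with DEX comes from the leukemia named in both. Scores used a pseudocount of 1 in Python 3.11.15 with numpy 2.4.6 and pandas 2.3.3. The scripts were tested on simulated data. Alternatives were RLE size factors, no filter, DESeq2 1.42.0, leaving out each leukemia, adding 4638, leaving leukemia out of the model, an rRNA term, subsets of leukemias, a pseudocount of 0.1, TPM, TMM-scaled FPKM and the median over genes.

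The 51 genes and the other lists were chosen with earlier results of these data known. Values in the libraries are given for the 12 called genes with the lowest adjusted p, for the best known gene or genes of the roles, and for the 3 widest and 3 narrowest ranges between leukemias, and from each related list the 3 genes with the lowest adjusted p are named where they passed.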

Additional observations from a re-analysis of the deposited data

Results flagged for a closer look

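The DEX minus VEH difference of Cdc20, the activator of the APC, was 0.65 on the log2(FPKM + 1) scale in 20M, apart from the -0.025 to 0.31 of the other 8 leukemias, a gap beyond the 95% critical value of Dixon's test for 9 values. Of 104 sets of 9 values compared in this way 1 passed, where chance would give about 5.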

How the results depend on the processing

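The 19 genes called higher in DEX (6.2% of all genes) became 20 with RLE size factors (6.02%), 21 with DESeq2 (9.02%), 17 with 4638 added (6.09%) and 14 to 21 when each leukemia was left out (2.6% to 8.88%), with 14 without 20M (2.6%) and without 73A (2.82%). The count was 12 with no filter, where 28697 genes were tested (1.65%), 10 with an rRNA term, 11 in the 4 leukemias without rRNA libraries, 0 in the 5 with such a library, and 4 without 73A and 73M. With no replicate block, that is with leukemia left out of the model and the pairing unused, it was 0, with a median log2 fold change of 0.25 and 10 genes at an unadjusted p under 0.05, and edgeR then called 6 of all genes. None of the 51 genes was called lower in any of these fits. Aurkb, Ube2c and Racgap1 kept their call in 16 of 18 alternatives, and Spc24 in 6. The mean score difference of 0.15 stayed between 0.10 and 0.20, and between 0.11 and 0.19 without each leukemia in turn. The distance between the highest and the lowest leukemia was 0.84 and became 1.19 with TPM. The 46 genes called between leukemias (82.5% of all genes) were 42 to 50 when each leukemia was left out (78.8% to 83.9%), 48 with 4638 (87.3%) and 51 with DESeq2 (86.8%). In 73M 1 gene was lower with RLE size factors, against 0. The cause of these shifts was not tested, except that subsets hold fewer libraries. Depth did not limit detection of the 51 genes, whose lowest count in a library was 85.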

Other observations

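Among the marker lists of other cell types, Cd5, a T cell surface receptor, was the only gene past the DEX against VEH test of 8 T lineage markers (log2 fold change -0.62 ± 0.13, SE, edgeR adjusted p = 0.0113, lower in DEX in 9 of 9 leukemias). The other 7 did not pass, with Cd3g, Lck, Cd2 and Cd3d at -0.20, -0.14, -0.16 and -0.07 and Cd247, Thy1 and Cd3e at 0.17, 0.12 and 0.02. None of the tested erythroid, neutrophil, monocyte and macrophage or B lineage markers passed in edgeR. The lowest adjusted p was 0.0889 for Tfrc, the transferrin receptor, which proliferating cells also express (-0.18). Of the 10 tested neutrophil genes the values ran from -0.63 for Ltf to 0.52 for Mmp8, with Retnlg at 0.09.

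Leukemia 4638 had the highest neutrophil marker level, with summed levels of 8630 FPKM in VEH and 5325 FPKM in DEX, and erythroid sums of 397 and 784 FPKM. Its mitosis score was 4.27 in VEH and 4.24 in DEX. Aurka was at 24.5 FPKM and Bub1b at 73.0 FPKM on average in 4638, near or above the highest of the other 9 leukemias, whereas Top2a (92.8 FPKM) was below the lowest, and Mki67 (138 FPKM) was above JW14 and close to JW81. Its T lineage marker mean was 3.54, against 5.12 to 6.17 in the others.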
